A study of Mus musculus with 8 samples.

Results

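The expression of 10 hepatic carriers of bile acids, conjugates and drugs was followed in mice at days 0, 1, 2 and 5 after the mitogen TCPOBOP, in 2 arms and with 8 Affymetrix arrays in all. Members are all probe sets that the platform's gene table assigns to Abcb11, Abcb4, Abcc2, Abcc3, Abcc4, Slc51b, Slc10a1, Slco1a1, Slco1a4 or Slco1b2, a list of names put together with earlier results of these data known. These are 10 of 18193 genes with a probe set of their own, and they have 16 probe sets. All mice carried a floxed Met gene and a tamoxifen-inducible Cre (Metff/ff:ERCre+/+), and the promoter that drives the Cre is not given in the labels. Controls were littermates that received corn oil alone in place of tamoxifen. The MET KO + EGFRi arm received 5 daily injections of tamoxifen (100 µl at 10 mg/ml), intended to remove MET throughout the body. From 1 day before TCPOBOP this arm also had the EGFR inhibitor canertinib in its food, at an intended 80 mg/kg daily. TCPOBOP was given once by gavage at 3 mg/kg, at least 5 days after the last tamoxifen, and whether the day 0 mice had received it is not stated. RNA of several livers was pooled for each array, so each arm and day has 1 array, and age and the number of mice are not given in the labels. The intended loss of MET, tamoxifen and the canertinib diet came together in 1 arm and cannot be told apart. The liver cells in which Met was to be deleted are not given beyond the inhibition being systemic.

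Hepatocytes take bile acids and drugs from blood through carriers on their basolateral (sinusoidal) side and export them into bile through pumps on the canalicular side. When bile flow or the bile acid load changes, other pumps on the basolateral side can return bile acids and conjugates to blood. The nuclear receptor FXR (Nr1h4) senses bile acids, and CAR (Nr1i3) and PXR (Nr1i2) sense drugs. TCPOBOP is a strong agonist of mouse CAR, and several of these carriers are known as genes that respond to CAR activators in mouse liver.

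The arrays were alike at the median, with a median signal of 224 to 251, while strong transcripts differed more. On days 0, 1, 2 and 5 the hepatocyte marker Alb had 37254, 50479, 42800 and 77081.5 in control. In MET KO + EGFRi it had 38805, 50765, 68203.5 and 69876. Cyp2b10, the best known CAR target, had 356 to 444 on day 0 and 32027 to 48292 on the later days in both arms, with no overlap between day 0 and the rest. The 2 probe sets of Met had 359 to 786 and 926 to 1444 in control, against 389 to 650 and 1049 to 2034 in MET KO + EGFRi, with differences of 0.00 and 0.26 (limma adjusted p = 0.998 and 0.551). Neither the deleted part of Met nor the place of these probes in it is given in the sources used here, so they do not check the label, and the arms are named as labelled. All 15 hepatocyte markers with a probe set passed the filter on low signals, and their summed signal was 404233 and 419482 on day 0 and 385975 to 599809 on the later days. Xist, transcribed in females, had 5970.4 to 9437 in the 8 arrays, and the Y-linked Uty had 135 to 441. Of the sex chromosome genes 4 had a probe set, and 2 of these lay below the filter. In bulk liver RNA, fewer cells of a type and less RNA per cell cannot be told apart.

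The windows before the start sites of 4 carriers are shown because 2 of them (Abcc4 and Slco1a4) passed the test for a rise after TCPOBOP, Abcc2 was higher on each later day in both arms without passing it, and Slco1a1 was the only one of the 9 tested with a negative mean change. Each is the 250 bases before an annotated start in RefSeq on GRCm38.p6, written in the direction of transcription. Capitals mark the nuclear receptor half-site AGGTCA or the antioxidant response element core TGACNNNGC on either strand.
Abcc4, chr14:118706220-118706469, minus strand: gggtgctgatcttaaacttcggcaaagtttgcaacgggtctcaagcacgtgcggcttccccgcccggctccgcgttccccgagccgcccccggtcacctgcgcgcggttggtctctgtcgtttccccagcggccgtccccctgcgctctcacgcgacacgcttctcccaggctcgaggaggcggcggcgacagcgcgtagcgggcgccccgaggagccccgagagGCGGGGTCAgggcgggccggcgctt
Slco1a4, chr6:141856221-141856470, minus strand: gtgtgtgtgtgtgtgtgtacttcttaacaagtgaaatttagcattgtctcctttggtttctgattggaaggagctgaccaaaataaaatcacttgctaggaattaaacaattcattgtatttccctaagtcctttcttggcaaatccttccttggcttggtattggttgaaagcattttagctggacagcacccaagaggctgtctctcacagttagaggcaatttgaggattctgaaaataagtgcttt
Abcc2, chr19:43782058-43782307, plus strand: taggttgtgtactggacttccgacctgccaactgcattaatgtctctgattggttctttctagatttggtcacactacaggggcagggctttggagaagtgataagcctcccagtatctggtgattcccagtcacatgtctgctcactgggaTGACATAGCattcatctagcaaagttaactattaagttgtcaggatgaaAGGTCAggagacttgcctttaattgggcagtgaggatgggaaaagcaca
Slco1a1, chr6:141946963-141947212, minus strand: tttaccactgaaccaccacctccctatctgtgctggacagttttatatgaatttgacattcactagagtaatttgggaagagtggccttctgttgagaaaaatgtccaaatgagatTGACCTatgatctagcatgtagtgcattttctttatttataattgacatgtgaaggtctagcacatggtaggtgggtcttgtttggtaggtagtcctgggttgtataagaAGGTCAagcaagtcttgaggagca

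Abcc4 has a second annotated start, at chr14:118676932-118677181, whose window is not printed and holds another core, 23 to 15 bases before that start. The Abcc4 window printed holds 1 antioxidant response element core, on the minus strand relative to the gene and 25 to 17 bases before the start, and no half-site. The Abcc2 window holds both, the core at 98 to 90 and the half-site at 49 to 44 bases before the start. The Slco1a1 window holds 2 half-sites and no core, and the Slco1a4 window holds neither. The half-site was found in 6 of the 11 windows of the 9 members in the promoter table and in 14.0 percent of all 32851 windows, and the core in 3 of 11 and in 10.2 percent. The half-site repeated in the same direction with 4 bases between, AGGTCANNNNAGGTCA, was in 0 of 11 member windows and in 0.0152 percent of all. A match describes letters only. Slco1a1, Slco1a4 and Slco1b2 all lie on chromosome 6.

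After TCPOBOP, 3 of the 9 carriers above the filter rose over both arms together. They were the basolateral exporters Abcc4 and Abcc3 and the uptake carrier Slco1a4, with mean changes over days 1, 2 and 5 of 3.17, 1.53 and 1.17 on the log2 scale. No carrier was called lower, though Slco1a1 had a mean change of -0.99 (unadjusted p = 0.0308, limma adjusted p = 0.432). A gene was tested where its mean log2 signal, after adding 71, reached 8.24, and it counts as called at a Benjamini-Hochberg adjusted p under 0.05 over all genes. The spread behind each p is how much the difference between the arms varied from day to day, since no group has a second array. A change between days that both arms share counts as response and not as spread. limma, with arm and day as additive terms, called 0.487 percent of the 12112 genes tested in this comparison, 0.421 percent higher and 0.0661 percent lower. At an unadjusted p under 0.05 there were 6 of 9 carriers and 10.1 percent of genes. Abcc4 passed the filter only through the arrays after TCPOBOP (mean log2 signal of 7.11 on day 0), so its test is conditioned on the arrays where it is high. Without Abcc4, 2 of 8 carriers were called, 5 of 8 had an unadjusted p under 0.05 and the median change was 0.50. The tenth carrier, Slc51b, did not pass the filter and was not tested. The median change of all genes tested was -0.02, and that of the 15 hepatocyte markers was 0.21.

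**Figure D1:**
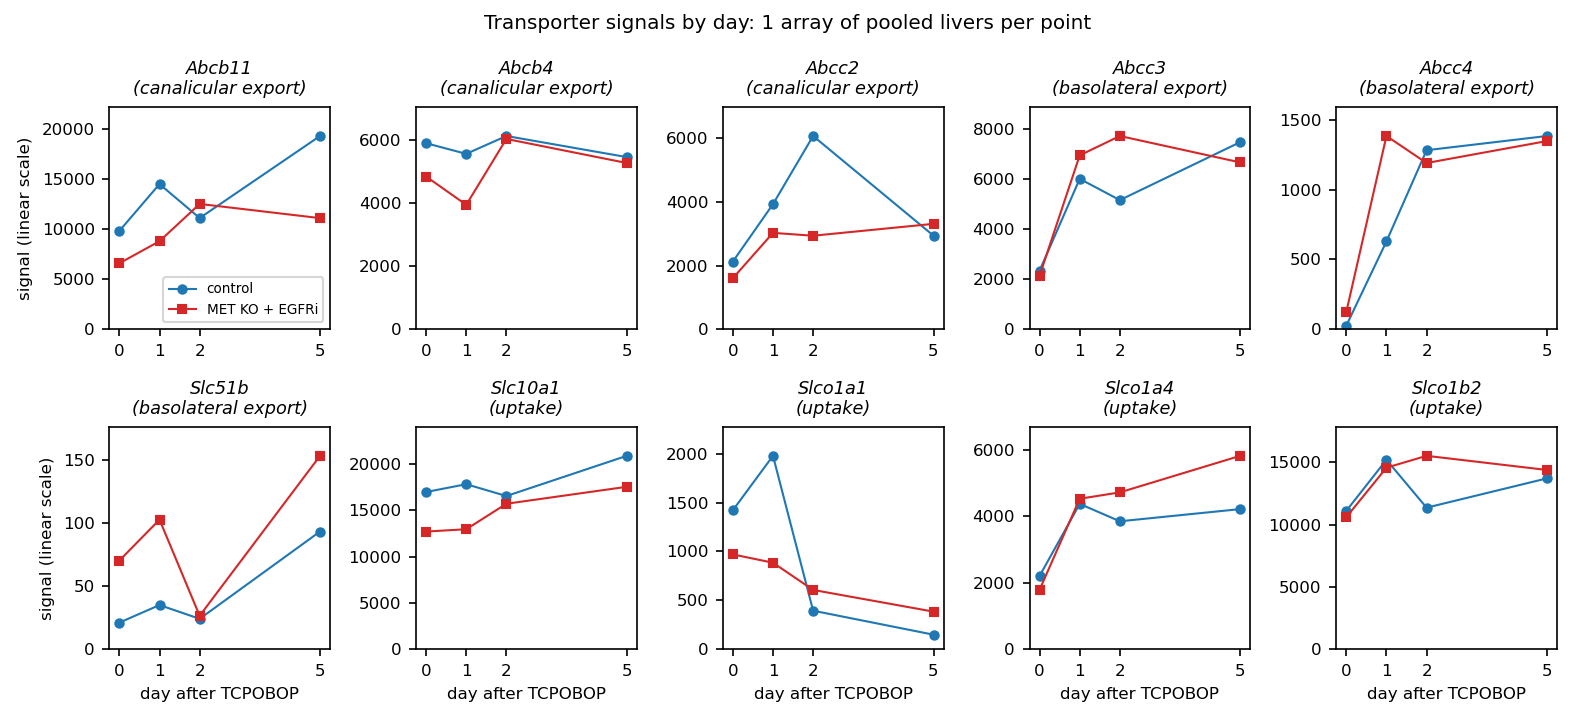
Signal (linear scale, axis from 0) of the 10 carriers against day after TCPOBOP, 1 point per array of pooled livers, blue circles for control and red squares for MET KO + EGFRi, on the probe set of highest mean for each gene. Abcc3, Abcc4 and Slco1a4 have their lowest 2 points on day 0, and Slco1a1 has its lowest points on days 2 and 5 in both arms.

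Among the basolateral exporters, Abcc4 (MRP4) moves bile acids together with glutathione and also carries nucleotides and sulphated steroids. Its signal in control was 26.1 on day 0 and 629, 1282 and 1384 on days 1, 2 and 5. In MET KO + EGFRi it was 124 and then 1384, 1190.5 and 1348. All 6 later arrays lay far above both day 0 arrays, and day 1 in control was the lowest of the 6. The mean change was 3.17 with a standard error of 0.27 (limma adjusted p = 0.00457, and 0.0281 with no filter at all), positive on 3 of 3 days in both arms. Since the day 0 signals are near the pseudocount of 71 that was added before logs, the size depends on it, at 4.35 without a pseudocount and 2.19 with the median signal of 238 in its place. Abcc4 stayed called when any array of days 1, 2 or 5 was left out, and had adjusted p = 0.0761 when the control array of day 0 was left out and 0.0571 when that of MET KO + EGFRi was.

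Abcc3 (MRP3) exports glucuronides and some bile acids to blood. Its signal was 2342 on day 0 and 6013, 5163 and 7482 later in control, against 2143 and then 6952, 7727 and 6670.1 in MET KO + EGFRi. The day 0 arrays of both arms were close, and each later array was at least 2.20 times the day 0 array of its arm. The mean change was 1.53 with a standard error of 0.18 (limma adjusted p = 0.0179). It was called without either day 2 array (adjusted p of 0.0191 and 0.0297) and not without any of the other 6, where adjusted p ran from 0.0524 to 0.187.

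Slc51b, the beta subunit of the organic solute transporter OST, works only as a pair with the alpha subunit Slc51a. Its signals were 21, 34.9, 24 and 93.2 in control, against 70.2, 103, 26.4 and 153 in MET KO + EGFRi, all below the median signal of every array. Detection calls were not used here, so these values give only weak levels, which were highest on day 5 in both arms. Slc51a had 227, 272, 329 and 224 in control, against 154, 193, 225 and 266 in MET KO + EGFRi (change after TCPOBOP 0.30, limma adjusted p = 0.751).

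Among the uptake carriers, Slco1a4 (OATP1A4) takes up organic anions, bile acids and cardiac glycosides. In control its signal was 2202 on day 0 and 4369.5, 3846 and 4213 later. In MET KO + EGFRi it was 1786 and then 4524, 4716 and 5816. The 2 day 0 arrays were the lowest, and on days 1, 2 and 5 the MET KO + EGFRi array was the higher of the pair. The mean change was 1.17 with a standard error of 0.18 (limma adjusted p = 0.0436). This call sits near the threshold of 0.05. It was lost when any 1 of the 8 arrays was left out (0.0659 to 0.307, the last with day 0 of MET KO + EGFRi left out) and under 5 of 11 alternative settings, where adjusted p reached 0.083 without a filter.

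Slco1a1 (OATP1A1) takes up organic anions and is known in mouse liver as a carrier with higher levels in males. Its stronger probe set had 1421, 1979, 393 and 147.5 in control, against 969, 884, 606 and 383 in MET KO + EGFRi. In both arms the lowest signals were those of days 2 and 5, with control the higher on days 0 and 1 and the lower on days 2 and 5. Averaged over both arms, the change was 0.17 on day 1, -1.15 on day 2 and -1.98 on day 5, with standard errors of 0.46. None passed the test (limma adjusted p = 0.964, 0.611 and 0.169), and the mean over the 3 days was -0.99 (adjusted p = 0.432). The weaker probe set, below the filter, had 829, 728, 43.9 and 63.5 in control, against 339, 30.2, 87.9 and 51.6 in MET KO + EGFRi. There the MET KO + EGFRi signal was already low on day 1, when the stronger probe set still had 884, so the probe sets disagree on that day.

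Slco1b2 (OATP1B2) takes up unconjugated bile acids, bilirubin conjugates and statins, and has 5 probe sets. The strongest had 11117, 15213, 11365 and 13721 in control, against 10604, 14579, 15533 and 14396 in MET KO + EGFRi. Every later array was above its day 0 array, with the control array of day 2 hardly so (change after TCPOBOP 0.37, limma adjusted p = 0.506). The other 3 probe sets above the filter had mean changes of 0.01, -0.34 and 0.04, none of them called, so the direction rests on 1 probe set, and the mean of probe sets gave -0.08. One of these 3 was lowest on day 5 in both arms, at 1848 and 2118, where day 0 had 3336 and 3317. The fifth probe set lay below the filter.

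Slc10a1 (NTCP) is the sodium-dependent carrier that takes up conjugated bile acids. Its signal was 16996, 17841, 16559.6 and 20911 in control, against 12716, 12967, 15725 and 17560.1 in MET KO + EGFRi. The groups of days overlapped, and the mean change after TCPOBOP was 0.19 (limma adjusted p = 0.76), with -0.07 under quantile normalization. Its second probe set gave 0.22 with every probe set tested on its own.

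**Figure D2:**
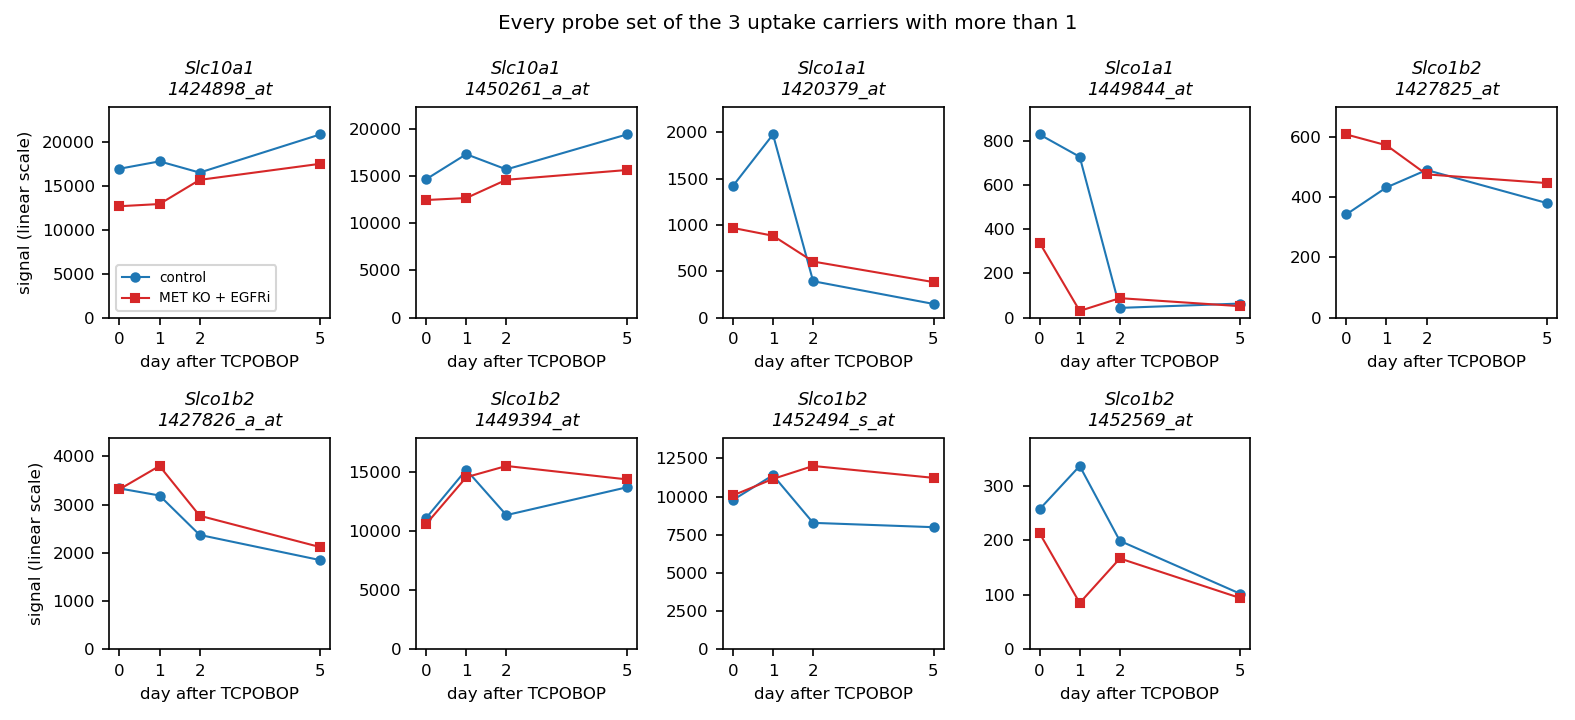
Signal (linear scale, axis from 0) of every probe set of Slco1a1, Slc10a1 and Slco1b2 against day after TCPOBOP, 1 point per array, with the probe set's name above each panel. The 2 probe sets of Slc10a1 run alike, those of Slco1a1 differ on day 1 in MET KO + EGFRi, and those of Slco1b2 do not share 1 direction after day 0.

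Among the canalicular pumps, Abcc2 (MRP2) exports glutathione and glucuronide conjugates, bilirubin among them. Its signal was 2128, 3933, 6076 and 2942 in control, against 1604.5, 3030.3, 2940.5 and 3314 in MET KO + EGFRi. All 6 later arrays were above both day 0 arrays, and the control array of day 2 stood highest. The mean change was 0.93 with a 95 percent interval from 0.42 to 1.43, and it did not pass the test over all genes (limma adjusted p = 0.182, unadjusted p = 0.00303). Its probe set's name ends in _s_at, which marks probes that can bind more than 1 transcript.

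Abcb11 (BSEP), the bile salt export pump, had 9812.5, 14485, 11095 and 19282 in control, against 6585, 8784, 12502 and 11087 in MET KO + EGFRi. Each later array was above the day 0 array of its own arm, while the arms overlapped (mean change 0.63, limma adjusted p = 0.365). The strong hepatocyte marker Alb had a mean change of 0.62 (limma adjusted p = 0.34). Of the 15 hepatocyte markers 11 had a positive change and 4 a negative one. Whether the change of Abcb11 differs from that of other strong transcripts was not tested. Abcb4 (MDR2), the flippase that moves phosphatidylcholine into bile, had 5908, 5569, 6136 and 5466 in control, against 4849, 3951, 6043 and 5278.5 in MET KO + EGFRi. Its mean change was 0.00 with a 95 percent interval from -0.36 to 0.36, which leaves room for a change of that size either way.

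Day by day over both arms, Abcc4 was called on days 1, 2 and 5 with changes of 2.87, 3.25 and 3.38 (limma adjusted p = 0.0327, 0.0242 and 0.00989), under the same condition of the filter. Abcc3 had 1.50, 1.47 and 1.63 and was called on day 5 alone (adjusted p = 0.0715, 0.122 and 0.0395). Slco1a4 had 1.14, 1.08 and 1.29 and was called on none (0.159, 0.201 and 0.0664). Over all genes, 0.116, 0.0578 and 0.264 percent were called higher on days 1, 2 and 5. These days share their day 0 arrays. For 5 carriers, Abcc2, Abcc3, Abcc4, Slco1a4 and Slco1b2, all 6 later arrays lay above both day 0 arrays, as they did for 5.8 percent of genes tested. Abcc4 is among these 5 and passed the filter only through its later arrays. Slco1b2 is among them on its strongest probe set only, with 11365 on day 2 in control against 11117 on day 0.

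**Figure D3:**
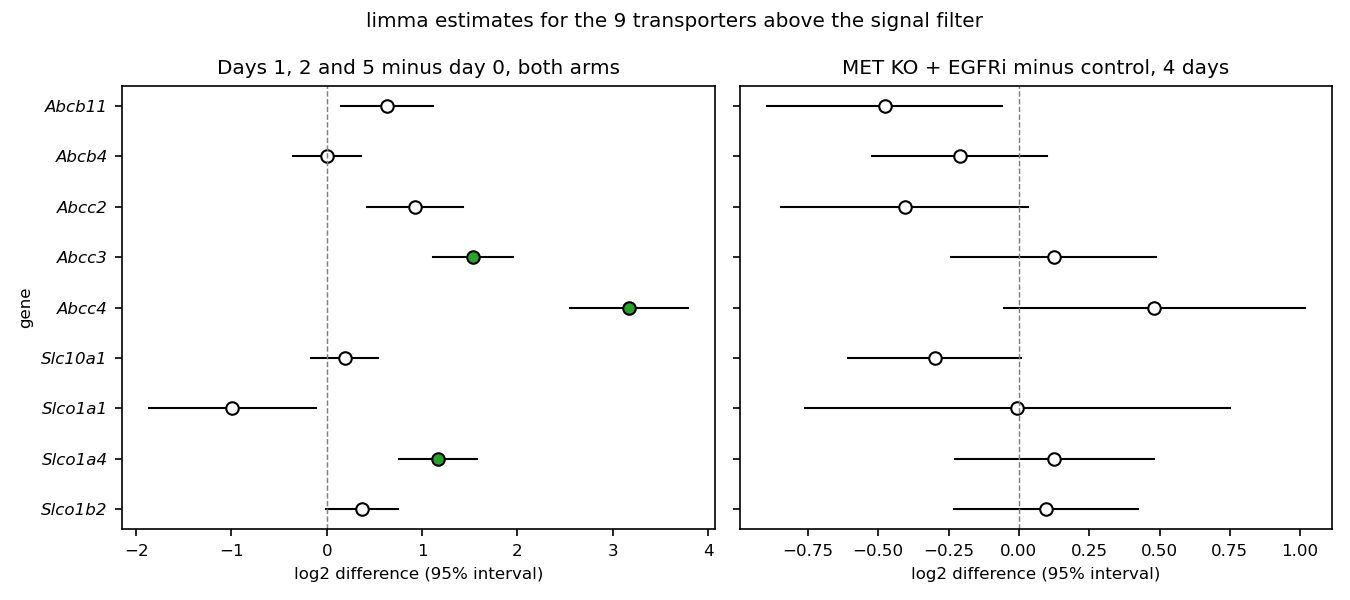
Log2 differences with 95 percent intervals for the 9 carriers above the filter, days 1, 2 and 5 minus day 0 over both arms at left and MET KO + EGFRi minus control over 4 days at right, with filled circles for limma adjusted p under 0.05. The filled circles are Abcc4 (3.17), Abcc3 (1.53) and Slco1a4 (1.17) at left, and the right panel has none.

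Within each arm the changes from day 0 have no replicate and no p-value. In control, 2, 4 and 3 of the 9 carriers differed at least 2-fold from day 0 on days 1, 2 and 5, against 4.85, 5.32 and 5.39 percent of genes tested. Abcc3 and Abcc4 were higher on each of these days, Abcc2 on day 2, and Slco1a1 was lower on days 2 and 5. In MET KO + EGFRi, 3, 3 and 5 differed 2-fold, against 3.36, 4.22 and 5.52 percent. Abcc3, Abcc4 and Slco1a4 were higher on each day and Abcc2 on day 5, when Slco1a1 was lower. Abcc4 is in each of these counts in both arms, and it passed the filter only through its later arrays. Slco1a4 had log2 changes of 0.97, 0.79 and 0.91 in control, against 1.31, 1.37 and 1.66 in MET KO + EGFRi. Abcc4 had 2.85, 3.80 and 3.91 in control, against 2.90, 2.69 and 2.86 in MET KO + EGFRi, values set by the pseudocount since the day 0 signals were 26.1 and 124. Plain ratios to day 0 were 24.11, 49.13 and 53.03 in control, against 11.13, 9.57 and 10.84 in MET KO + EGFRi. Slco1a1 had 0.46, -1.68 and -2.77 in control, against -0.12, -0.62 and -1.19 in MET KO + EGFRi.

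**Figure D4:**
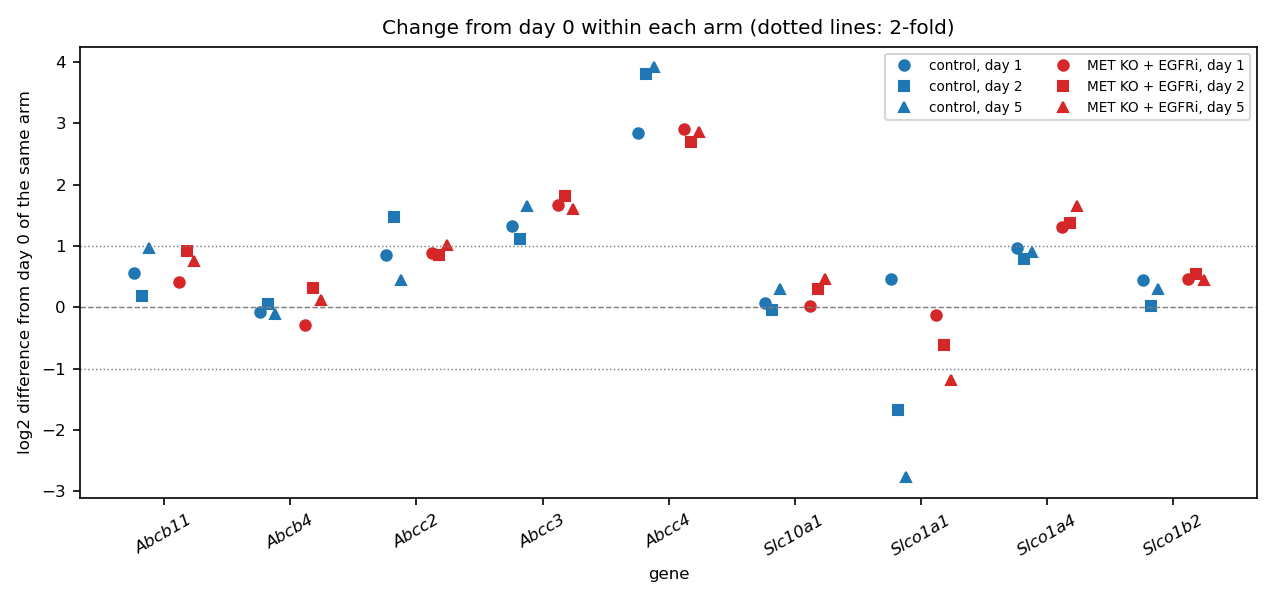
Log2 difference from the day 0 array of the same arm for the 9 carriers above the filter, with circles, squares and triangles for days 1, 2 and 5, blue for control and red for MET KO + EGFRi, and dotted lines at 2-fold. Abcc4 lies highest in both arms, from 2.69 to 3.91, and Slco1a1 lowest, down to -2.77 in control on day 5.

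Whether the carriers changed differently from day 0 in the arms was tested with an interaction of arm and later days against day 0. The series has no later array without TCPOBOP. In MET KO + EGFRi, later days can also mean longer on the canertinib food and longer since tamoxifen. A different response to TCPOBOP itself was not tested apart from these. limma called 0 of the 9 carriers and 0.0 percent of all genes. At an unadjusted p under 0.05 there were 0 carriers and 543 genes, or 4.48 percent. The largest estimates were -0.70 for Abcc4 (95 percent interval -1.91 to 0.50), which was -1.92 without a pseudocount and -0.20 with the median signal as pseudocount, 0.69 for Slco1a1 (-1.12 to 2.50) and 0.56 for Slco1a4 (-0.18 to 1.30). These intervals, from 2 residual degrees of freedom and the moderated variance, leave room for differences of more than 2-fold in either direction for Slco1a1, toward a smaller response in MET KO + EGFRi for Abcc4 and toward a larger one for Slco1a4. The intervals of Abcc2 (-1.13 to 1.09), Abcb11 (-0.94 to 1.19), Abcc3 (-0.54 to 1.20) and Slco1b2 (-0.61 to 1.05) reach past 2-fold too.

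Between the arms, averaged over the 4 days, no carrier was called. The carriers with the largest differences were Abcc4, with a mean of 0.48, and the canalicular pumps Abcb11 and Abcc2, with -0.48 and -0.41. The value for Abcc4 was 0.81 with no pseudocount added and 0.31 when the median signal was added, where Abcb11 (-0.47) and Abcc2 (-0.39) were larger in size. limma called 0 of 9 carriers and 0.578 percent of all genes, and at an unadjusted p under 0.05 there was 1 carrier, Abcb11, and 12.1 percent of genes. The median difference of the 9 carriers was -0.01, and that of all genes 0.00.

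Abcb11 had the lower signal in MET KO + EGFRi except on day 2 (12502 against 11095). Its difference of -0.48 had a standard error of 0.18 and a 95 percent interval from -0.90 to -0.06 (limma adjusted p = 0.355, unadjusted p = 0.0301). Slc10a1 was lower on 4 of 4 days by a mean of -0.30 (-0.61 to 0.01, adjusted p = 0.423), and its other probe set also on 4 of 4 days. Abcb4 was lower on 4 of 4 days too, by -0.21 (-0.52 to 0.10, adjusted p = 0.594). A share of 10.3 percent of all genes was lower on 4 of 4 days, and 2 of the 9 carriers were. No carrier was higher on 4 of 4 days, against 9.92 percent of genes.

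Abcc2 had -0.41 (-0.85 to 0.03, limma adjusted p = 0.449), lower on 3 of 4 days. Abcc4 had 0.48 (-0.05 to 1.02, adjusted p = 0.464), higher on days 0 and 1 and slightly lower on days 2 and 5. Abcc3, Slco1a4 and Slco1b2 had 0.12, 0.13 and 0.10 with intervals that reach no further than -0.24 and 0.49. Slco1a1 had -0.01 (-0.76 to 0.75), with days on either side, and was 0.07 without a pseudocount and -0.48 with the mean of its probe sets.

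On single days, without a replicate, 1 carrier differed at least 2-fold between the arms on days 0, 2 and 5 and 2 on day 1, against 4.82, 4.91, 4.41 and 5.52 percent of genes. They were Abcc4 on day 0 (26.1 in control, against 124 in MET KO + EGFRi) and on day 1 (629 and 1384), Slco1a1 on day 1 (1979 and 884) and, in the other direction, on day 5 (147.5 and 383), and Abcc2 on day 2 (6076 and 2940.5). Log2 differences were 1.01, 1.06, -1.10, 1.06 and -1.03 after the pseudocount was added. The plain ratio for Abcc4 was 4.77 on day 0, where both signals were weak, and 2.20 on day 1. With the median signal as pseudocount 0 carriers differed 2-fold on any of the 4 days, and quantile normalization left 0 on day 2.

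Markers of other cell types and acute phase proteins were read between the arms. Of 19 acute phase proteins, 19 had a positive difference and 10 were called higher in MET KO + EGFRi, and their summed signal was 263605 to 407891 in control, against 552881 to 670196 in MET KO + EGFRi. Saa1 had 1045.5 to 2612 and 13192 to 56587. All 12 Kupffer cell and macrophage markers had a positive difference, with 1 called, and summed to 16965 to 37261 and 30491.5 to 53190. Of 12 neutrophil and monocyte markers 9 had a probe set, 8 passed the filter and 3 were called higher. The 9 summed to 3743.5 to 3843 and 8039 to 8974. Endothelial markers (0 of 10 called, median 0.01) summed to 7334 to 10793 and 8474 to 12290. Of the lymphocyte markers 4 passed the filter with 0 called (median -0.04). The 7 with a probe set summed to 2156 to 2887 and 2127 to 2577. Of 8 stellate and fibroblast markers above the filter 5 had a negative difference (median -0.05) and 1, Dcn, was called higher. All 10 with a probe set, 2 of them below the filter, summed to 10422 to 11556 and 13343 to 16275. Without Dcn, left out after its values were seen, the sums were 6517.5 to 7550.1 and 6595 to 7038.5. Of 10 cholangiocyte markers 7 had a probe set and 3 passed the filter with 0 called (median 0.03), and the 7 summed to 1705 to 3052 and 1858 to 2897. No marker probe set was listed at 0. The part of these cells and of the acute phase proteins in the carriers' differences was not tested.

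Of 9 other genes listed with the canalicular exporters, limma called 0 after TCPOBOP and 0 between the arms (0 and 2 at an unadjusted p under 0.05, the 2 being Abcb1a and Abcc6). Among the 9 were the P-glycoproteins Abcb1a and Abcb1b, the sterol pair Abcg5 and Abcg8, and Abcg2. Their median change after TCPOBOP was 0.07, with the largest sizes for Atp8b1 (-0.36), Abcg8 (-0.35) and Abcb1a (0.31). Of 5 other genes listed with the basolateral exporters, 0 were called in either comparison (0 and 2 unadjusted, the 2 being Abca1 and Abcc9). Their medians were 0.01 after TCPOBOP and 0.07 between arms. A place in these lists does not show that a gene is an exporter on that side. Abca1, which exports cholesterol, had 5523 and 5212 in control, against 11399 and 11611 in MET KO + EGFRi on days 0 and 1, and 6270.3 and 5637 against 6350.5 and 6732 on days 2 and 5 (difference between arms 0.61, adjusted p = 0.305). Of 11 other uptake carriers, 9 had a probe set, 6 passed the filter and 0 were called in either comparison (1 and 0 unadjusted), with medians of -0.02 and -0.09. The largest change after TCPOBOP was 0.44 for the prostaglandin carrier Slco2a1 (adjusted p = 0.404).

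Of 23 CAR target enzymes, 19 had a probe set and 18 passed the filter, and all 18 had a positive change after TCPOBOP (median 1.35). Sult1e1, among the 18, had 23.8 and 29.7 on day 0 and passed the filter only through later arrays. Its signal on day 2 in MET KO + EGFRi was 26.5. limma called 7 of the 18 higher, against 0.421 percent of all genes tested. They were Cyp2b10 (6.38), Cyp2c55 (5.16), Ces2a (3.62), Gstm3 (3.06), Gstt3 (2.40), Papss2 (1.35) and Aldh1a7 (1.34), with limma adjusted p from 1.37e-06 to 0.0204. Of 10 NRF2 target enzymes 8 passed the filter and 0 were called after TCPOBOP (4 unadjusted, median 0.37), with Osgin1 at 1.35 (adjusted p = 0.0533). Of 20 sensors and regulators 18 passed and 0 were called after TCPOBOP, over the 3 later days together, or between the arms (5 and 4 unadjusted), with medians of -0.05 and -0.01. The largest changes after TCPOBOP were those of Ppara (-0.88, limma adjusted p = 0.1555) and Cebpb (-0.73, 0.217). On day 5 by itself Ppara was called lower, by -1.65 (adjusted p = 0.0481). Cebpb differed by 0.74 between the arms (adjusted p = 0.127). The CAR gene Nr1i3 had 3141, 2065, 1783.5 and 1887 in control, against 1408.5, 863, 790 and 1708.5 in MET KO + EGFRi (difference between arms -0.89, adjusted p = 0.131). Nr1h4 had -0.06 after TCPOBOP and 0.02 between arms, and Nr1i2 -0.14 and 0.04. Nr0b2 (SHP), which is induced by FXR, had 784, 1967, 1943 and 2114 in control, against 1076.5, 685, 1661 and 986 in MET KO + EGFRi, and Hnf4a had a difference of 0.64 between arms (adjusted p = 0.175), with MET KO + EGFRi the higher each day.

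All 15 bile acid synthesis enzymes passed the filter and 0 were called after TCPOBOP (5 unadjusted, median 0.30) or between the arms (1 unadjusted, median 0.00). Cyp7a1, the rate-limiting enzyme of the classic pathway, had 5047, 3967, 3508 and 2607 in control, against 1895, 2023, 3900.3 and 4087 in MET KO + EGFRi. Cyp8b1, which sets the share of cholic acid, had a change of 0.91 after TCPOBOP (limma adjusted p = 0.323). Of 14 sex-biased liver genes 8 passed the filter. Of these Elovl3 was called higher after TCPOBOP (1.62, adjusted p = 0.0155) and Hao2 lower in MET KO + EGFRi (-1.78, adjusted p = 0.0229).

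Carriers were also set beside all genes tested by the shape of their 8 values, as the root mean square difference between log2 profiles centred on their own means. The 3 closest genes were sought for the 6 carriers whose log2 signal spans at least 1. The closest to Abcc3 were Afmid (0.145), Cyp2c50 (0.153) and Papss2 (0.202), and to Slco1a4 Afmid (0.139), Papss2 (0.142) and Tgfbr2 (0.191). These profiles are low on day 0 and high on the later days in both arms, as Papss2 shows with 6561 and 5730.4 on day 0 and 13441.5 to 17794 later. Abcc3 and Slco1a4 were each other's nearest carrier (0.24). The closest to Abcc4 were Smpd2 (0.438), Gstm3 (0.656) and 1700067K01Rik (0.685). Smpd2 had 123 and 383 on day 0 and 1124 to 2742 later.

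The closest to Abcc2 was Mki67 (0.079), a gene of dividing cells, followed by Arpp19 (0.181) and Mttp (0.193). All distances were taken after the pseudocount was added, which understates folds of weak genes. Mki67 has far weaker signals than Abcc2, so its lead over Arpp19 and Mttp can depend on the pseudocount. Likeness without a pseudocount was not tested. Mki67 had 192, 447, 636 and 297 in control, against 114.5, 263, 289 and 312 in MET KO + EGFRi, with its highest value in control on day 2, as for Abcc2. The closest to Abcb11 were Kpnb1 (0.145), Ces1d (0.146) and Arhgef7 (0.15), and the nearest carrier was Slc10a1 (0.255). The closest to Slco1a1 were Hspb3 (0.522), Malt1 (0.532) and Noct (0.537), none of them near. These are descriptions over 8 arrays that share their day and arm.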

How the data were processed

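Livers were pooled by arm and day and hybridised to 8 Affymetrix mouse arrays, from 6 µg of total RNA each, per the labels' protocols. The deposited intensity values are MAS5 signals, 1 per probe set and array, per the submitters' processing notes. They are linear, and the mean of each array after trimming 2 percent at each end is 500. The version of MAS5 and detection calls are not given in the sources used here.

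Of 45101 probe sets, 64 controls were left out. Of the rest, 34945 had 1 gene in the platform's table, 932 matched several and 9160 had no entry. Values were taken to log2 after adding 71, their lower quartile, which understates folds of weak genes. Each gene took its values from the probe set of highest mean, kept at a mean of 8.24 or more, the median of probe sets, which left 12112 genes. Of the 10 carriers 9 passed, with 13 of 16 probe sets. An additive model of arm and day (3 residual degrees of freedom) was fitted in limma 3.58.1 under R 4.3.3, with a variance trend. An interaction of arm with later days against day 0 (2 residual degrees of freedom) was fitted too. Benjamini-Hochberg adjusted p under 0.05 over all genes was called. The spread is that of the difference between the arms from day to day, not between animals, and 8 arrays limit the precision. Single-day values have no p-value. The fits were also run on simulated data with independent noise in each gene and array. Those data hold no shift shared by the genes of an array, so the run does not check for one. RefSeq promoter windows covered 9 members.

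Members and lists were chosen with earlier results of these data known. Named were all members, called genes and up to 4 of the largest changes in each list, a few regulators, and the 3 genes of closest profile.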

Additional observations from a re-analysis of the deposited data

Results flagged for a closer look

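The weakest probe set of Slco1b2 that passed the filter lay on opposite sides of its day 0 signal in the arms. It had 343 on day 0 and 432, 490 and 380.2 later in control, all higher, and 608 and then 572, 475.5 and 447 in MET KO + EGFRi, all lower. The difference in response was -0.54 with a standard error of 0.37 (limma adjusted p = 1.00 with every probe set tested on its own), which did not pass the test. The 4 other probe sets of Slco1b2 did not show this pattern.

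Cyp7a1, which makes bile acids, went from 5047 on day 0 to 3967, 3508 and 2607 in control. In MET KO + EGFRi it went the other way, from 1895 to 2023, 3900.3 and 4087. Its difference in response was 1.33 with a standard error of 0.58 (limma adjusted p = 1.00), positive on 3 of 3 days, and did not pass the test. Cyp7b1, another synthesis enzyme, was not among the genes screened for this pattern. It had 1194, 3447, 2276 and 1682 in control, against 7234, 2832, 2962.5 and 1940 in MET KO + EGFRi. The difference in response of Cyp7b1 was larger, at -2.43 with a standard error of 0.35 (limma adjusted p = 0.568), and did not pass either.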

How the results depend on the processing

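No paired analysis was possible because each group has 1 array and the labels give no replicate numbers. The days stand as blocks in the additive fit instead. No alternative called a carrier between the arms or for the difference in response. Under the 11 alternatives, 3 or 2 carriers were called after TCPOBOP, Abcc3 and Abcc4 in all 11 and Slco1a4 in 6. Leaving out 1 array gave 0 to 2 carriers, with 0 without either day 0 array, and 4 to 49 genes in place of 59. An array left alone on its day adds nothing to the difference between arms, which had 20 to 57 genes over these fits in place of 70. Without a filter 26 genes were called after TCPOBOP and 28 between the arms. The mean of probe sets called 35 and no trend in the variance 34 after TCPOBOP, and days 1, 2 and 5 alone 41 between the arms. With the median as pseudocount, 0 carriers differed 2-fold between the arms on each day, and 3 in place of 5 differed 2-fold from day 0 in MET KO + EGFRi on day 5. The mean of probe sets left 0 on day 5 and quantile normalization 0 on day 2. The cause was not tested, beyond that fewer samples or more genes were fitted.

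Signs turned only for values that did not pass the test. Between the arms, Slco1a1 (-0.01) turned to 0.07 without a pseudocount, 0.17 on days 1, 2 and 5 and -0.48 with the mean of probe sets, and ran from -0.36 to 0.36 on leaving out 1 array. Abcc3 ran from -0.03 to 0.22 and Slco1b2 from -0.02 to 0.15, negative without either day 2 array. After TCPOBOP, Slco1b2 turned to -0.08 with the mean of probe sets, Abcb4 and Slc10a1 both to -0.07 under quantile normalization, and Abcb4 ran from -0.06 to 0.06 on leaving out 1 array. For the difference in response, Slco1b2 turned to -0.03 with the mean of probe sets, and Abcc2 to 0.05 under quantile normalization. On leaving out 1 array Abcc2 ran from -0.31 to 0.29 and Abcb11 from -0.19 to 0.30, with signs turned without either day 2 array. The interaction has no fit without a day 0 array. Signals near background, as for Slc51b and Abcc4 on day 0, limit what can be said of their size.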
